A study of Homo sapiens with 4 samples.

Results

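The clustered protocadherin genes are the protein-coding genes on chromosome 5 whose symbols start with PCDHA, PCDHB or PCDHG, taken from GENCODE release 44. They numbered 53 of the 19970 protein-coding genes of chromosomes 1 to 22 and X. Of these 53, 13 were alternate alpha genes, 16 were beta genes, 12 were gamma A genes, 7 were gamma B genes and 5 were C-type genes (PCDHAC1, PCDHAC2, PCDHGC3, PCDHGC4 and PCDHGC5). Open chromatin at these genes was mapped by ATAC-seq, an assay that tags the DNA a transposase can reach, in MCF10A cells carrying a tet-inducible TAZ-4SA transgene. MCF10A cells come from human breast epithelium and are not tumorigenic. TAZ is a co-activator of the Hippo pathway that acts through TEAD factors, and the 4SA mutant escapes inhibitory phosphorylation. Cells given 0.05 µg/mL doxycycline for 72 h (Dox) were compared with cells without it (No Dox), which carry the same transgene, with 2 biological replicates of 50000 cells per reaction in each condition. The replicates of a condition were pooled into 1 peak list, so neither a replicate spread nor a p-value is given, and the lists do not give the read depth of a sample. Doxycycline itself and TAZ-4SA cannot be told apart in this design.

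Clustered protocadherins are cell surface adhesion proteins that bind like with like and are best known for giving single neurons a surface identity. Each alpha and gamma gene has a variable exon of its own, with its own promoter, which is spliced to constant exons that are shared within the cluster, whereas each beta gene stands alone. In neurons a few alternate promoters are chosen per cell and the C-type promoters are used more steadily. Most alternate promoters carry a short conserved sequence element near the start, at which CTCF binds, and alpha genes carry a further CTCF site in the variable exon. Cohesin then brings promoters and distal enhancers together, and DNA methylation of these promoters keeps them silent.

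The conserved element was sought in hg38 on the coding strand, from 300 bp before to 50 bp after the transcription start site (TSS) of the canonical transcript. The stretch of 8 bases present in the most member promoters was taken first (of several equally frequent, the first by alphabet), then the one present in the most of the promoters without it, and so on until there were 4. The 4 stretches so chosen were GGTGGCGC, found in 14 members, all of them beta genes, GCCGCTGT and GTCGCTGT, found in 12 members each, and GTCGCTCT, found in 5 alpha genes. At least 1 of the 4 was present in 43 of the 53 member promoters and in 4.04% of all protein-coding promoters of the same length. The stretches were chosen from the members themselves, so this difference is a description. They began between 97 bp before and 33 bp after the TSS, with a median of 59 bp before it. The letters GGCGCT (either strand), which all 14 beta stretches form with the base that follows, were found in 24 member promoters (45.3%) and in 31.7% of all promoters. The CTCF core (CCA NN AG NN GGC, either strand, where N is any base) was found in 1 member promoter, PCDHB9, and in 3.13% of all promoters. Only exact matches were counted, so CTCF sites that differ from this pattern are missed. The sequences below show the element in capitals in promoters described further on, with 18 bases on each side, on the plus strand, 5′ to 3′.
PCDHA1, chr5:140786082-140786125: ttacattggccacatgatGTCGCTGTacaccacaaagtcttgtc
PCDHA4, chr5:140806975-140807018: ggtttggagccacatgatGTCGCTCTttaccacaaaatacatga
PCDHA11, chr5:140868879-140868922: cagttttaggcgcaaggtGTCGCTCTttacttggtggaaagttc
PCDHA12, chr5:140875240-140875283: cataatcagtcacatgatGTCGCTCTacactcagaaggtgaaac
PCDHB7, chr5:141172559-141172602: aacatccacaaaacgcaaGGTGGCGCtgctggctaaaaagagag
PCDHB9, chr5:141187067-141187110: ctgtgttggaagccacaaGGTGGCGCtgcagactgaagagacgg
PCDHB12, chr5:141208636-141208679: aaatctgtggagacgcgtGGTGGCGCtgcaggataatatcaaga
PCDHB16, chr5:141182303-141182346: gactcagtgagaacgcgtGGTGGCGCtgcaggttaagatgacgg
PCDHGA1, chr5:141330399-141330442: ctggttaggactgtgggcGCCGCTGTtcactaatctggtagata
PCDHGA2, chr5:141338699-141338742: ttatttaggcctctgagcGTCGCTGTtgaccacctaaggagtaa
PCDHGA8, chr5:141392564-141392607: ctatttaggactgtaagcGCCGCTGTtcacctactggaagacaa
PCDHGB6, chr5:141407920-141407963: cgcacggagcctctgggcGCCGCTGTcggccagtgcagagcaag
PCDHGC3, chr5:141475876-141475919: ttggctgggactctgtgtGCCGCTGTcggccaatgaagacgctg

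Of the 10 members without one of the 4 stretches, 6 had 1 base changed in the stretch at the most similar place, counted from the first base of the element in the member it was most like. They included PCDHGB7, which matched PCDHGB6 at 41 of 44 bases and had T6C in the element, and PCDHA5 with T8G, PCDHB6 with C8G and PCDHGA11 with T8C. PCDHAC1, PCDHAC2, PCDHB1 and PCDHGC5 matched no member at more than 24 of 44 bases. PCDHAC2 was still counted among the 6, with G1T, although the bases around its stretch were little alike. PCDHGB7 is set beside PCDHGB6 because only the first had a promoter peak. The differing stretch is given in capitals.
PCDHGB7, chr5:141417579-141417622: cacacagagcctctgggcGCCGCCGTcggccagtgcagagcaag

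In Dox, a smaller share of clustered protocadherin promoters had a peak than of protein-coding promoters in general. In No Dox the share was nearer to that of all genes, and no interval was computed for these shares. The share without a peak in either list was near that of all genes. Among members with a promoter peak, the median one ranked below the middle of its list. A peak overlapped the window of 1 kb either side of the TSS in 23 of 53 members in Dox (43.4%). In No Dox it was 29 of 53 (54.7%). Over all protein-coding genes the shares were 65.7% in Dox and 63.9% in No Dox. In both lists 17 members had a peak (32.1%, exact Clopper-Pearson 95% interval 19.9 to 46.3%), against 60.1% of all protein-coding genes. In neither list 18 members had one (34.0%, 21.5 to 48.3%), which is near the 30.5% of all genes. A peak in Dox alone was found at 6 members (11.3%, 4.27 to 23.03%), against 5.58% of all genes, and a peak in No Dox alone at 12 members (22.6%, 12.3 to 36.2%), against 3.84% of all genes. These intervals cover counting error only, and neighbouring members share sequence and are not independent. The lists held 84353 peaks in Dox and 117740 in No Dox. With both lists cut to the same length by q-value, 10 members had a peak in Dox alone and 10 in No Dox alone, so the counts no longer differed. In the full lists the TSS itself lay under a peak in 17 members in Dox and in 17 in No Dox, so the counts did not differ there either. For lists of equal length and for the TSS itself, the share over all protein-coding genes was not computed.

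The height of a peak is the authors' fold enrichment over background, whose level differs between the lists. It is therefore given with its percentile, the share of peaks in the same list that have a lower fold. The member with a peak at the median had a percentile of 29.0 in Dox and 41.5 in No Dox, against 82.5 and 88.0 for all protein-coding promoters with a peak. Only 11 of the 53 members in Dox and 14 of the 53 in No Dox had a promoter peak that reached the median of the list (4.07 in Dox and 3.81 in No Dox). Of all protein-coding genes, 58.7% and 58.1% did.

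**Figure D1:**
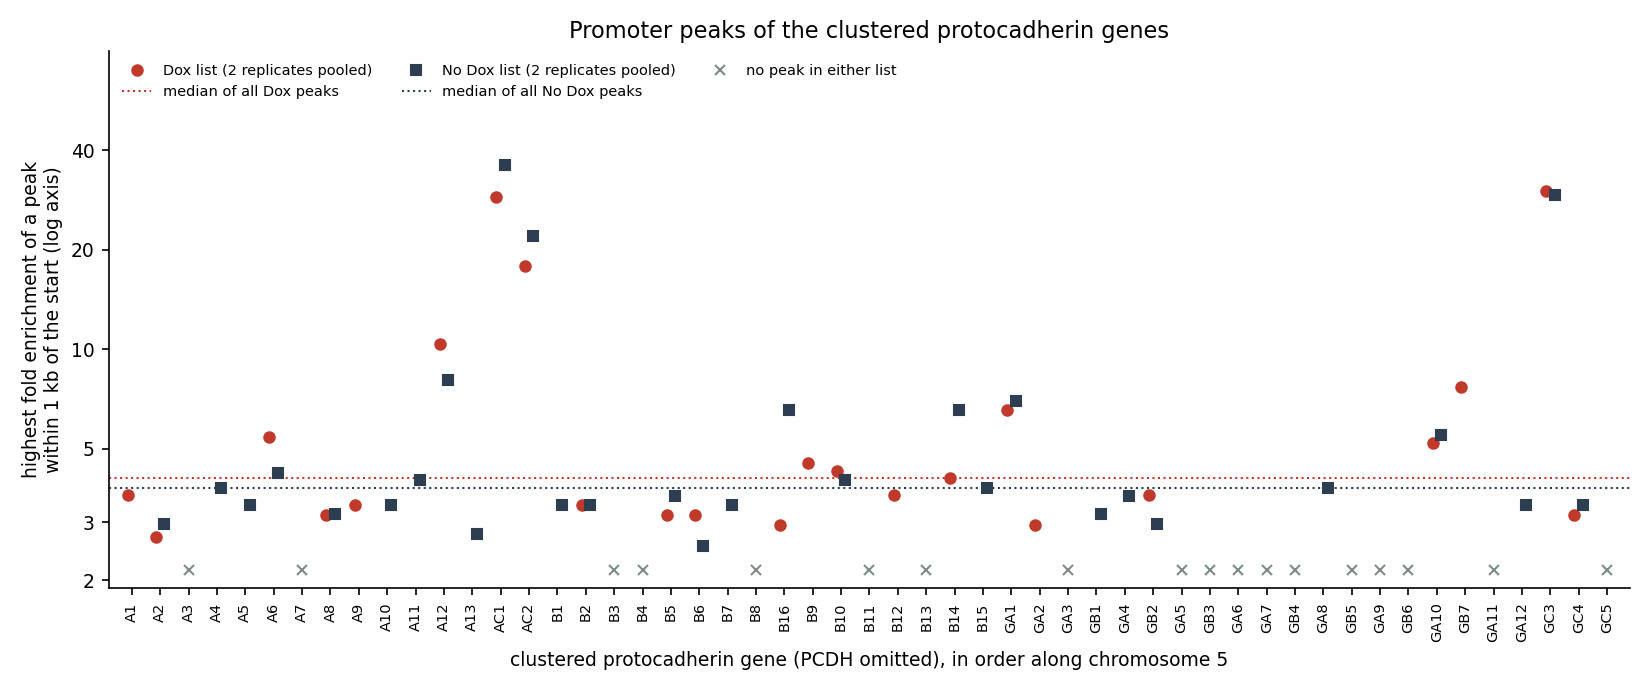
Highest fold enrichment (log axis) of a peak within 1 kb of the TSS for each of the 53 clustered protocadherin genes in order along the chromosome, in Dox (red circles) and No Dox (dark squares). PCDHAC1, PCDHAC2 and PCDHGC3 stand far above the rest in both lists, 18 genes marked with a cross have no peak, and the dotted lines are the medians of all peaks of each list.

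Of the 5 C-type genes, 3 stood apart from the other members in both conditions. PCDHGC3 had a fold of 30.1 in Dox (percentile 99.7) and 29.2 in No Dox (99.5), with summits 74 and 86 bp before the TSS, next to its GCCGCTGT stretch. PCDHAC1 had 28.9 in Dox (99.6) and 36.0 in No Dox (99.8). PCDHAC2 had 17.9 in Dox (97.8) and 22.03 in No Dox (98.7). All 3 were thus among the most accessible sites of either list, whether or not the promoter held one of the stretches. PCDHGC4 had low peaks with folds of 3.16 in Dox (9.07) and 3.39 in No Dox (31.9), and PCDHGC5 had none at its canonical start.

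Of the 13 alternate alpha genes, 4 had a promoter peak in both lists, 2 in Dox alone, 5 in No Dox alone and 2 in neither. PCDHA12 had the highest of them, with a fold of 10.4 in Dox (percentile 90.6) and 8.05 in No Dox (87.5). It was the 4th highest member in both lists. PCDHA6 had 5.43 in Dox (67.3) and 4.24 in No Dox (60.1), while PCDHA2 and PCDHA8 stayed below 3.2 in both. The summit of PCDHA12 in Dox lay 27 bp after the TSS, and a TEAD motif (ACATTCC) begins at the first transcribed base. The 121 bases around this summit are printed because they hold 1 of the few TEAD motifs of member promoters, which is given in capitals.
PCDHA12 summit, chr5:140875275-140875395: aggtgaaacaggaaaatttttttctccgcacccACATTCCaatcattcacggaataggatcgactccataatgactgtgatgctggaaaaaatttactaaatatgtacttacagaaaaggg

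Of the 16 beta genes, 6 had a promoter peak in both lists, 2 in Dox alone, 3 in No Dox alone and 5 in neither. None exceeded a fold of 6.57. PCDHB16 had 2.94 in Dox (percentile 2.0) and 6.57 in No Dox (82.1), with both summits 32 bp before the TSS. PCDHB14 had 4.07 in Dox (44.8) and 6.57 in No Dox (82.1). These were the beta genes whose rank in the lists differed most between the conditions, and whether this exceeds the spread between replicates cannot be told. PCDHB10 stood near the middle of both lists, with 4.29 in Dox (50.4) and 4.02 in No Dox (55.3). PCDHB2, PCDHB5 and PCDHB6 had folds of at most 3.60 in both.

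The gamma A and gamma B genes had the smallest share of members with a promoter peak. Of the 12 gamma A genes, 2 had a peak in both lists, 1 in Dox alone, 3 in No Dox alone and 6 in neither. Of the 7 gamma B genes, the same counts were 1, 1, 1 and 4. PCDHGA1, the first gene of the cluster, had 6.56 in Dox (percentile 76.5) and 6.99 in No Dox (83.9). PCDHGA10 had 5.20 in Dox (64.9) and 5.51 in No Dox (75.9). Both ranked alike in the lists. PCDHGB2 had a shared region at its start, chr5:141359982-141360456, with 3.16 in Dox and 2.97 in No Dox, and its highest Dox peak, 3.62, lay 798 bp after the TSS in a region of Dox alone.

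The 6 members with a promoter peak in Dox alone were spread over all 3 clusters, and PCDHGB7 was the only one of them with a high peak. PCDHGB7 had a fold of 7.69 in Dox (percentile 82.5) at chr5:141417551-141417830, with the summit 59 bp before the TSS, and no peak within 1 kb in No Dox. PCDHB9 had 4.52 (54.9) at chr5:141186955-141187413 with the summit on the TSS. PCDHA1 and PCDHB12 had 3.62 each (29.0), PCDHA9 had 3.39 (19.0) and PCDHGA2 had 2.94 (2.0). PCDHGB7 and PCDHB9 kept this state at a q-value of 1e-05 and among peaks at or above the median fold, and the other 4 did not. With a window of 2 kb, PCDHGB7 had a peak in both lists, since a No Dox peak lay further into its exon, and PCDHB9 and PCDHGA2 kept their state. The whole PCDHGB7 peak of 280 bases is printed because it was the highest region of Dox alone in the locus. The capital marks the TSS, and no TEAD, AP-1, CTCF core or TATAAA motif was found in it.
PCDHGB7 peak in Dox, chr5:141417551-141417830: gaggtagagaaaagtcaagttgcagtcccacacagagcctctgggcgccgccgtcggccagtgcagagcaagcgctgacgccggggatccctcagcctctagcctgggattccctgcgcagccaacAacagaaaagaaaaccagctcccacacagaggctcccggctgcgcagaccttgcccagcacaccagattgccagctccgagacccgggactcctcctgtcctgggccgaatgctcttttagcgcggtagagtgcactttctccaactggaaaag

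The 12 members with a promoter peak in No Dox alone had folds between 2.75 and 4.02. PCDHA11 was the highest at 4.02 (percentile 55.3, chr5:140868860-140869299, summit 35 bp before the TSS), followed by PCDHA4, PCDHB15 and PCDHGA8 at 3.81 each (49.3). PCDHGA4 had 3.60 (41.5), and PCDHA5, PCDHA10, PCDHB1, PCDHB7 and PCDHGA12 had 3.39 each (31.9). PCDHGB1 had 3.18 (20.6) and PCDHA13 had 2.75 (2.02). PCDHA11 stood above the median fold of the list, 3 others at it and the remaining 8 below it. At a q-value of 1e-05 PCDHA11 was the only one of the 12 left, and PCDHB16 joined it. When any coding start of a gene was used in place of the canonical one, PCDHA10, PCDHA11 and PCDHGA8 had a peak in both lists. The canonical TSS itself was outside every No Dox peak in PCDHA5, PCDHA10, PCDHA13, PCDHB1, PCDHB15, PCDHGA4, PCDHGA8 and PCDHGA12. In PCDHA5, PCDHA10, PCDHA13 and PCDHB1 the summits lay 657, 780, 814 and 835 bp after the TSS. Of the 6 members with a peak in Dox alone, only PCDHA9 had its TSS outside the peak.

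The 18 members without a promoter peak in either list were PCDHA3 and PCDHA7, the beta genes PCDHB3, PCDHB4, PCDHB8, PCDHB11 and PCDHB13, the gamma A genes PCDHGA3, PCDHGA5, PCDHGA6, PCDHGA7, PCDHGA9 and PCDHGA11, the gamma B genes PCDHGB3, PCDHGB4, PCDHGB5 and PCDHGB6, and PCDHGC5. Neighbouring members are in part near copies, and reads from exact copies cannot be placed with certainty. Stretches of 100 bases with a second exact copy in the locus were present in 16 promoter windows and made up over 10% of 8, of which 5 had no peak in either list (PCDHA7, PCDHB8, PCDHB13, PCDHGB4 and PCDHGB5), 2 had one in Dox alone (PCDHA9 and PCDHB9) and 1 in both (PCDHB10). None of the 12 members with a peak in No Dox alone was among the 8. The part of these copies in the states was not tested.

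The conserved element was present in members of all 4 promoter states. Of the 43 members with 1 of the 4 stretches, 4 had a peak in Dox alone, 10 in No Dox alone, 14 in both and 15 in neither, and of the 10 without it the counts were 2, 2, 3 and 3. The median ratio of observed to expected CpG, taken over 500 bp either side of the TSS, was 0.61 in members with a peak in Dox alone, 0.65 in those with a peak in No Dox alone, 0.65 in those with both and 0.68 in those with neither, against 0.72 over all protein-coding genes. The median share of G and C in the same stretch lay between 43.6 and 45.8% in the 4 states, against 61.3% over all protein-coding genes. The TEAD motif (ACATTCC or GCATTCC, either strand) was found in the promoters of PCDHA12, PCDHGA1 and PCDHGB4, against 6.14% of all promoters, and the AP-1 motif (TGAGTCA, either strand) in that of PCDHA13, against 4.12%. The letters TATAAA (either strand) were found in 16 members (30.2%), against 11.5% of all promoters.

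Besides the start, the alternate alpha and gamma genes had a second place of accessibility at the end of the variable exon. In the lists as deposited, the end was more often under a peak than the start. This comparison was chosen after the values were seen. A peak overlapped the last 800 bp of the variable exon in 18 of the 32 alternate alpha and gamma genes in Dox (56.2%, 37.7 to 73.6%) and in 24 of 32 in No Dox (75.0%, 56.6 to 88.5%). Within 400 bp of the TSS it was 11 of 32 in Dox and 13 of 32 in No Dox, and in a window of 800 bp that began 700 bp after the TSS it was 3 of 32 in Dox and 13 of 32 in No Dox. Among the 73 other multi-exon genes with a first exon of 2000 bp or more the order was the reverse, with a peak at the start in 52.1% in Dox and 56.2% in No Dox, in the middle in 31.5% and 31.5%, and at the exon end in 15.1% and 13.7%. The ends of the protocadherin exons were also rich in G and C, with a median of 63.4% against 44.9% around the TSS and 47.6% in the middle, and the part of base composition in this pattern was not tested.

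**Figure D2:**
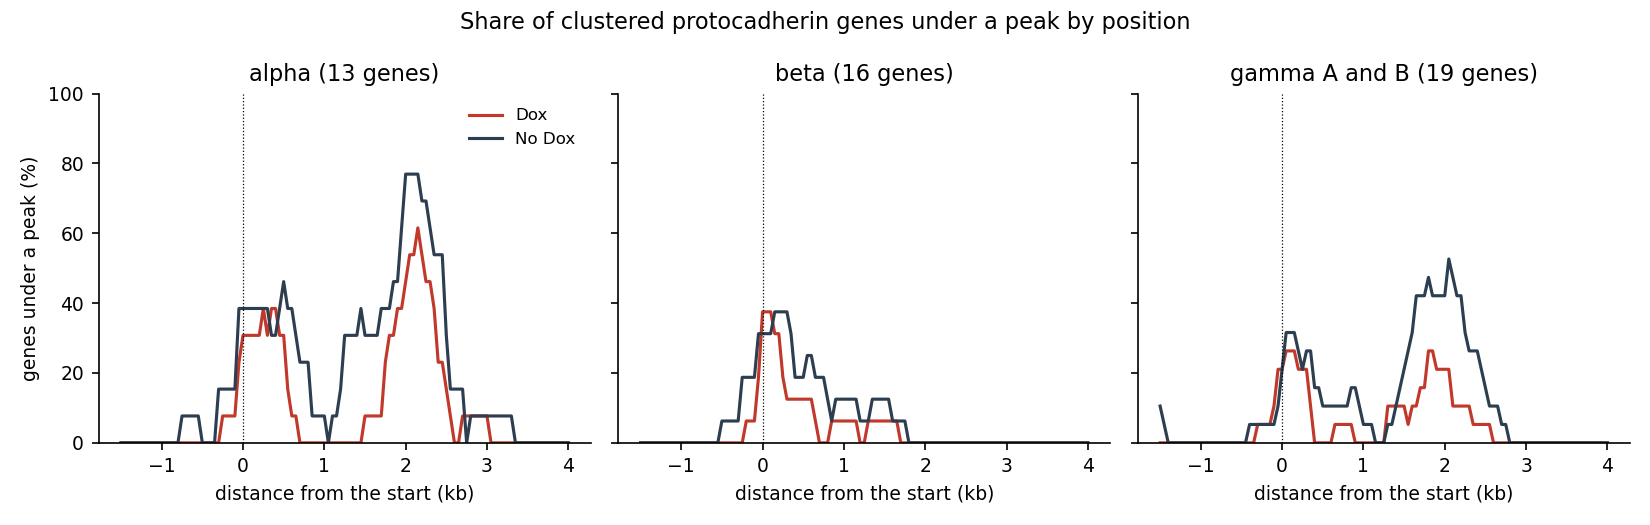
Share of genes (%) whose position at each distance (kb) from the TSS lies under a peak, in Dox (red) and No Dox (dark), for 13 alpha, 16 beta, and 19 gamma A and gamma B genes. Alpha genes reach 61.5% in Dox and 76.9% in No Dox about 2 kb after the TSS, gamma genes 26.3% and 52.6%, and beta genes at most 6.25% and 12.5% in the same stretch. In Dox, gamma genes also reach 26.3% near the TSS.

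All 13 alpha genes had a peak at the exon end in at least 1 list, with 7 in both, 3 in Dox alone and 3 in No Dox alone. PCDHA3, which had no promoter peak, had the highest in Dox, with a fold of 5.20 in Dox and 4.45 in No Dox, and PCDHA4 had 4.75 in Dox and 4.45 in No Dox. PCDHA13 had 3.62 in Dox and the highest value in No Dox, 4.66. These are modest folds near the list medians, and 4 alpha genes in Dox and 6 in No Dox reached the median. Gamma A genes had an end peak in 4 of 12 in Dox and 8 of 12 in No Dox, and gamma B genes in 4 of 7 in Dox and 6 of 7 in No Dox. Of the 12 alternate members without a promoter peak in either list, 10 had an end peak, and 8 of them had it in both lists (PCDHA3, PCDHA7, PCDHGA5, PCDHGB3, PCDHGA6, PCDHGA7, PCDHGB4 and PCDHGB5). The CTCF core was found in none of the 32 exon ends, in 4 of the windows of 400 bp either side of the TSS (PCDHGA1, PCDHGA4, PCDHGA5 and PCDHGA6), which reach beyond the promoter window used for motifs above, and in 1 middle window (PCDHGA3). The windows do not cover the whole exon, and the bases from 400 to 700 bp after the TSS lie in none of them. Absence of this exact core does not show that CTCF sites are absent. At a q-value of 1e-05, 4 end peaks were left in Dox and 9 in No Dox. Of all 32 alternate alpha and gamma genes, PCDHA6, PCDHA12, PCDHGA1, PCDHGA10 and PCDHGB7 then had a Dox peak within 1 kb of the TSS. This start window is wider than the window of 400 bp either side used above. In No Dox these were PCDHA6, PCDHA11, PCDHA12, PCDHGA1 and PCDHGA10. The end was thus no longer more often under a peak than the start in Dox, and still was in No Dox.

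The whole locus, chr5:140700000-141550000 (850 kb, hg38), held 168 union regions, made by merging peaks of either list that overlap or touch. Of these, 24 were in Dox alone (14.3%, against 22.3% of all union regions), 82 in No Dox alone (48.8%, against 45.3%) and 62 in both. Median folds in the locus were 3.62 in Dox and 3.39 in No Dox, below the list medians. Of the 60 regions with a peak at or above the list median, 4 were in Dox alone, 14 in No Dox alone and 42 in both (6.67%, 23.3% and 70.0%), against 13.5%, 27.4% and 59.0% of all such regions of the genome.

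**Figure D3:**
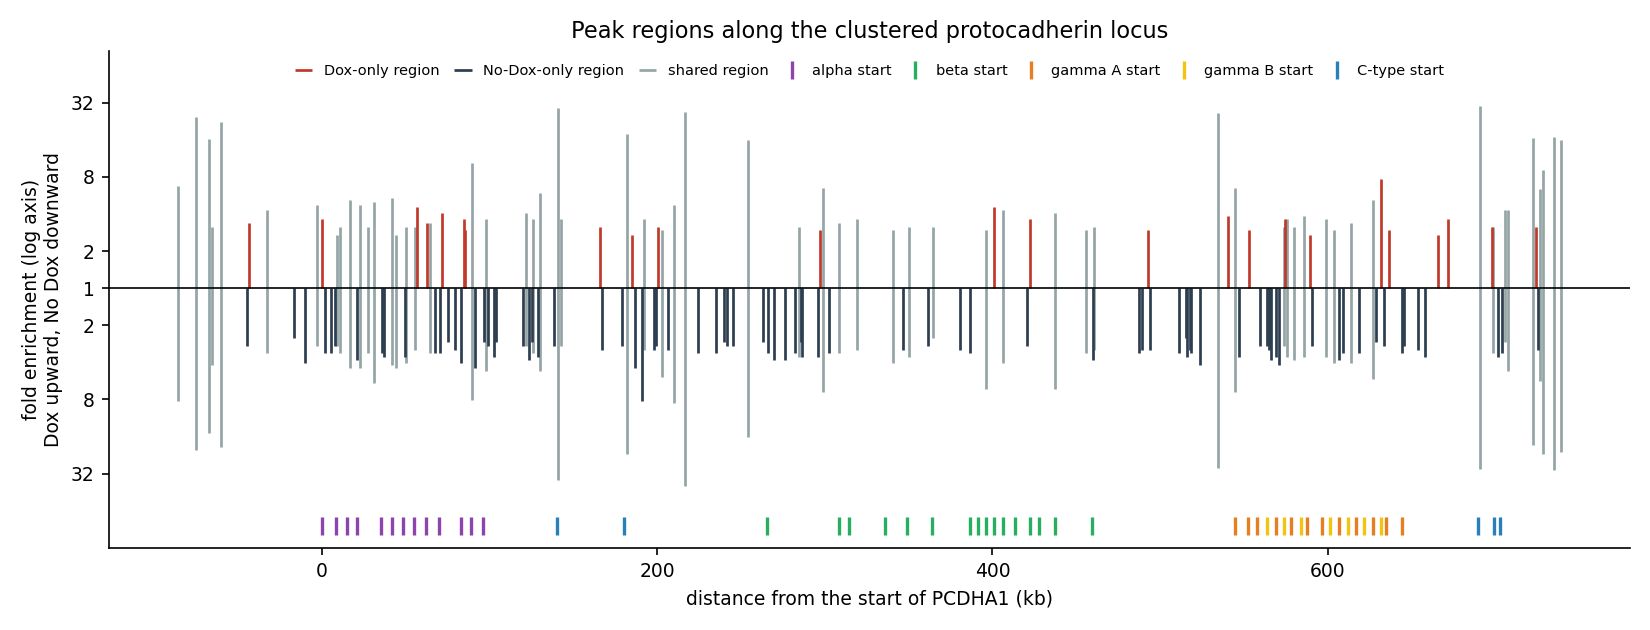
Fold enrichment (log axis) of each of the 168 peak regions against the distance (kb) from the TSS of PCDHA1, with Dox upward and No Dox downward. Regions of Dox alone are red, regions of No Dox alone are dark and shared regions are grey, and the ticks at the bottom mark the TSS of each member. The lines above a fold of 8.26 are all shared by both conditions, and 1 region of Dox alone (7.69) and 1 of No Dox alone (8.26) stand above the others of their kind.

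The 5 highest shared regions, ordered by the larger of their folds in the lists, were not alternate promoters. The first, which was the highest in No Dox, lay in the alpha cluster between the second and the third constant exon, at chr5:141000656-141005262, with a fold of 26.7 in Dox (percentile 99.5) and 40.04 in No Dox (99.8). The PCDHAC1 and PCDHGC3 promoters, both higher than it in Dox, followed. A region behind the last gamma constant exon, chr5:141520600-141522091, had 17.0 in Dox (97.4) and 29.7 in No Dox (99.5) with an AP-1 motif (TGAGTCA, either strand) near its summit, as had the region in the alpha intron. The region at the start of TAF7, a general transcription factor gene between the beta and gamma clusters, had 26.4 in Dox (99.4) and 29.0 in No Dox (99.5). Further shared regions lay behind the gamma cluster at chr5:141513458-141515724, with 9.04 in Dox (87.4) and 22.03 in No Dox (98.7), in the gamma intron at chr5:141507273-141510256, with 16.5 and 18.6, and between the alpha and beta clusters at chr5:141039466-141041777, with 15.8 and 16.1. The last was the only shared region between the clusters alpha and beta, where 5 others were in No Dox alone. The sequences around the summits of 3 shared regions outside member promoters are printed, with CTCF core and AP-1 matches in capitals. The bases shown of the first hold none of these and no TEAD motif, its AP-1 motif lying further from the summit.
Alpha intron, No Dox summit, chr5:141004291-141004411: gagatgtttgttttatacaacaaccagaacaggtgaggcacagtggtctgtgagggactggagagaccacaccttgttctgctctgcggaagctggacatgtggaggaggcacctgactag
Behind gamma, No Dox summit, chr5:141521249-141521369: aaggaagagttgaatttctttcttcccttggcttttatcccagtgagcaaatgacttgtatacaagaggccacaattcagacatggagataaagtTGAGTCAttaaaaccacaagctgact
DIAPH1, No Dox summit, chr5:141524813-141524933: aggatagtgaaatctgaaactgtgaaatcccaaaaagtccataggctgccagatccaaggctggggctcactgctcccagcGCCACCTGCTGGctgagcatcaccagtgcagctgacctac

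The DIAPH1 region lies at an annotated transcript start inside DIAPH1, a formin gene behind the gamma cluster. It had a fold of 16.0 in Dox (percentile 97.0) and 21.4 in No Dox (98.6) and was 1 of 4 regions of the locus with a CTCF core within 100 bp of the summit. The others were the PCDHB9 promoter in Dox alone, a region of No Dox alone in PCDHA4 and a shared region over the last gamma constant exon, chr5:141512044-141512891. The shared one had 6.33 in Dox (74.9) and 5.72 in No Dox (77.4). The summit in PCDHA4 lay 543 bp after the TSS, in the variable exon and outside the promoter window used for motifs. The 4 of 168 (2.38%) were near the 2.65% of all union regions.

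Of the regions of 1 condition alone, 4 of 24 in Dox and 14 of 82 in No Dox reached the list median. In Dox alone the highest after PCDHGB7 was in the end of the PCDHA8 exon, chr5:140842681-140843254, with a fold of 4.52 (percentile 54.9), level with the PCDHB9 promoter. The end of the PCDHA10 exon, chr5:140857956-140858223, had 4.07 (44.8), and chr5:141326234-141326645, before the gamma cluster, had 3.84 (37.6). In No Dox alone the highest was in the alpha intron before the first constant exon, chr5:140976688-140977591, with 8.26 (88.0). It was the only region of No Dox alone with a percentile above 64, and a second one lay near it at chr5:140972281-140973353, with 4.45 (63.9). The end of the PCDHA12 exon, chr5:140876990-140877633, also had 4.45 (63.9). The end of the PCDHGA4 exon, chr5:141356423-141357550, and chr5:141309605-141310085, between the beta and gamma clusters, had 4.24 each (60.1). The last exon of either cluster held a region of No Dox alone, with 3.39 (31.9) at chr5:141010080-141011330 in the alpha exon and 3.18 (20.6) at chr5:141510993-141511540 in the gamma exon, and none of Dox alone.

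Of the regions of 1 condition alone, 8 of Dox and 15 of No Dox overlapped a member promoter window. Those of Dox were the 6 named above, a region with a fold of 3.62 at chr5:141360634-141360892 in PCDHGB2 and one of 3.16 at chr5:141483778-141484157 before PCDHGC4. Those of No Dox were the 12 named above, a further region each in PCDHGB1 (2.97 at chr5:141350001-141350276) and PCDHGA12 (2.97 at chr5:141431332-141431649), and one of 2.97 at chr5:140794057-140794346 before PCDHA2. PCDHGB2, PCDHGC4 and PCDHA2 had other promoter peaks as well, so these regions did not set their state.

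Among regions of 1 condition alone in the lists as deposited, those of No Dox were more numerous in the locus and those of Dox on both sides of it. Regions of Dox alone numbered 24, against 82 of No Dox alone, in the locus (22.6%, 15.1 to 31.8%), 57 against 19 in the 850 kb before it (75.0%, 63.7 to 84.2%), 65 against 19 in the 850 kb behind it (77.4%, 67.0 to 85.8%) and made up 33.0% over the genome. The interval of the locus did not meet those of the flanks, but these intervals cover counting error only, and neighbouring regions may not be independent. The genome-wide share lay above it, and that of chromosome 5, 29.5%, inside it. Regions of Dox alone were fewer in each part of the locus that had any, with 1 of Dox and 3 of No Dox before the alpha cluster, 9 of Dox and 30 of No Dox in the alpha cluster, 3 and 14 in the beta cluster, 9 and 21 in the gamma cluster, 0 and 5 between alpha and beta, and 2 and 9 between beta and gamma. With lists of equal length the share was 44.9% in the locus (33.6 to 56.6%), 79.5% and 86.3% in the flanks and 49.1% over the genome, so the locus was then close to the genome and still below its flanks. At a q-value of 1e-05, 8 regions were of Dox alone and 16 of No Dox alone (33.3%, 15.6 to 55.3%), against 53.6% (33.9 to 72.5%) before and 70.0% (50.6 to 85.3%) behind, and the intervals overlapped. Among peaks at or above the list median the share was 25% in the locus (11.5 to 43.4%), 48.4% before it (30.2 to 66.9%) and 67.7% behind it (48.6 to 83.3%), so the flank before it no longer had more regions of Dox and its interval overlapped that of the locus. Peaks differed in kind as well, since 57.8% of the Dox peaks in the locus were under the list median, against 53.3% before and 53.4% behind it, and 63.9% of the No Dox peaks in the locus, against 17.0% before and 32.1% behind it. The locus had 57 coding starts and 41.3% G and C, the flanks 21 and 12 starts and 43.9% and 46.5%, and the part of these in the difference was not tested.

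**Figure D4:**
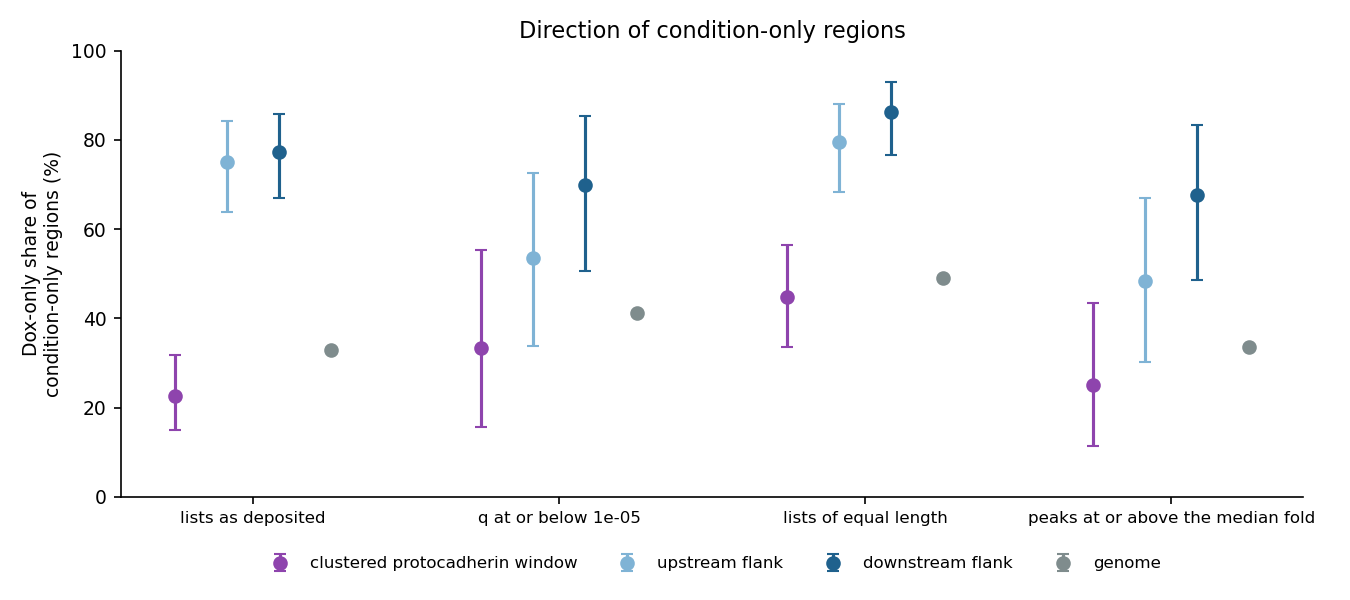
Share (%) of regions of 1 condition alone that were of Dox, with exact 95% intervals of the counts, in the clustered protocadherin locus, the 850 kb before it, the 850 kb behind it and the genome, for 4 ways of choosing peaks. The locus lies below both flanks in each, from 22.6% with the lists as deposited to 44.9% with lists of equal length.

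Genes known to regulate the clusters or to work with the proteins mostly had open promoters in both conditions. Of 14 regulators, among them CTCF, the cohesin subunits RAD21, SMC1A, SMC3, STAG1 and STAG2, the cohesin release factor WAPL and the silencing factors SMCHD1, DNMT3B and SETDB1, 13 had a promoter peak in both lists and WIZ, a zinc finger protein linked to chromatin loops, had one in No Dox alone with a fold of 5.08 (percentile 72.1). CTCF had 11.1 in Dox (91.9) and 9.74 in No Dox (91.1), and DNMT3B, a DNA methyltransferase, had 3.62 in Dox (29.0) and 4.66 in No Dox (67.1). All 7 partner genes, among them the kinase genes RET, PTK2 and PTK2B and the WAVE complex genes CYFIP2, WASF1, NCKAP1 and ABI1, had a peak in both, as had 60.1% of all genes. Of 11 non-clustered protocadherins, 6 had a peak in both (PCDH1, PCDH7, PCDH9, PCDH18, PCDH19 and PCDH20), PCDH12 and PCDH17 in Dox alone with folds of 3.84 (37.6) and 3.16 (9.07), PCDH15 in No Dox alone with 3.39 (31.9), and PCDH8 and PCDH10 in neither. PCDH9 stood highest with 24.4 in Dox (99.3) and 26.9 in No Dox (99.3).

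Markers were checked at the same canonical starts. Of 6 mammary basal epithelial markers, KRT5, EGFR, CDH1 and ITGB4 had a promoter peak in both lists, and KRT14 and TP63 had none. Of 6 neuronal markers, SYP, SNAP25 and SYT1 had a peak in both, and RBFOX3, NEUROD1 and STMN2 had none. Of the immune markers PTPRC and CD3E had none and CD79A had one in Dox alone with a fold of 3.62 (percentile 29.0), and the endothelial markers PECAM1 and CDH5 had none. An open promoter does not show that the gene is transcribed, and RNA was not analysed here.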

How the data were processed

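The ATAC-seq data consisted of 1 peak list for Dox and 1 for No Dox, each made from 2 pooled replicates. Per the study's methods and the submitters' processing notes, the authors used BWA for alignment to hg38 and MACS2 for peak calling (FDR of 0.05). The deposited fold of a peak is the ratio of pooled signal to background at its summit. The deposited −log10 of the q-value was used to filter peaks, and the −log10 of the p-value and the integer score, also deposited by the authors, were not used. The distance of the summit from the peak start was taken from the deposited lists. No column belonged to a sample outside the series (0 columns).

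Members were matched by symbol in GENCODE release 44, and the TSS was that of the Ensembl canonical transcript. A promoter peak overlapped 1 kb either side of it. Peaks that overlap or touch were merged into union regions. Sequences and motifs were read from hg38. All clustered protocadherin genes were accounted for; those named with values were members with a promoter peak in 1 condition alone, the 5 highest in each list, the 5 highest regions of each class and condition-only regions at promoters or constant exons, together with further members described after their values were seen. Members, lists and motifs were chosen with earlier results of these data known. With replicates pooled, shares have exact Clopper-Pearson intervals of 95% for counting error and no p-value was computed. The lists do not give the depth per sample, which is unknown here, and how the aligner's multiply placed reads were treated is not given in the sources used here.

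Results were recomputed at q-values of 0.01 and 1e-05, with the longer list shortened to the length of the other, peaks at or above the median fold, windows of 500 bp and 2 kb, the summit inside the window, any coding TSS, merging within 200 bp, an overlap of 50%, a rank among promoter peaks and other motif windows (500 bp before to 100 bp after the TSS, and 100 bp either side of the summit). The steps were tested on simulated data. The tools were scipy 1.17.1, pandas 2.3.3, numpy 2.4.6 and, for figures, matplotlib 3.10.9, under Python 3.11.15.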

Additional observations from a re-analysis of the deposited data

How the results depend on the processing

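Low folds and the unequal length of the lists limit these results. At a q-value of 1e-05, 11 members had a promoter peak in Dox and 11 in No Dox, 2 in Dox alone and 2 in No Dox alone, 8 regions of the locus were of Dox alone and 16 of No Dox alone (33.3% of Dox), and 4 exon ends in Dox and 9 in No Dox had a peak. Among peaks at or above the median fold, the members were 11 and 14, 2 and 5, and the exon ends 4 and 11. When union regions of the full lists were kept by their highest peak, 4 were of Dox alone and 14 of No Dox alone. When lower peaks were removed before merging, these were 8 and 24 (25% of Dox). With lists of equal length, 10 members had a peak in Dox alone, and 43 regions were of No Dox alone (44.9% of Dox). With a window of 2 kb, 44 members had a promoter peak in No Dox and 2 in Dox alone. The median percentile of member promoters was 36.9 in Dox and 49.3 in No Dox with a window of 500 bp, 45.4 in No Dox with the summit inside the window, and 5.44 in Dox and 6.98 in No Dox when ranked among promoter peaks only. The CTCF core was found at 2 members within 100 bp of the promoter summit. The other values, 41 of 69, stayed within 1.5 times of the main count or inside its interval. The cause was not tested beyond the smaller number of peaks or the wider window that each setting brings. No paired analysis was possible because the authors pooled the replicates of each condition into 1 list, and for the same reason no replicate could be left out. The exon ends, the locus trimmed to the first member and the last constant exon, and the flanks under other settings were added after the data were seen.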

Other observations

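Around the summits of the 168 regions of the locus, the TEAD motif was found within 100 bp in 2 of 24 regions of Dox alone, 6 of 82 of No Dox alone and 4 of 62 shared ones. Over the genome it was found in 13.6% of regions of Dox alone, 5.72% of No Dox alone and 9.85% of shared ones. The AP-1 motif was found in 0 of 24, 2 of 82 and 8 of 62 regions of the locus, against 8.12%, 11.7% and 18.5% over the genome. The letters GGCGCT were found in 24 of 168 regions of the locus (14.3%), against 5.62% of all union regions. Before the alpha cluster, the starts of the vault RNA genes VTRNA1-1, VTRNA1-2 and VTRNA1-3 had folds of 24.4, 16.3 and 22.4 in Dox and 20.5, 15.0 and 19.5 in No Dox. Of the other coding genes with a start in the locus, ZMAT2, TAF7 and ENSG00000279983 had a promoter peak in both lists and SLC25A2, a mitochondrial carrier gene, had one in No Dox alone with a fold of 3.39. The peaks of ENSG00000279983 are those of the PCDHB14 promoter, chr5:141222835-141223945, and not separate ones.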
